A study of Rattus norvegicus with 16 samples.

Results

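The genes described here are the long noncoding RNA classes of the rat annotation in cultured aortic smooth muscle cells. They are the genes that the deposited expression table lists as lincRNA, antisense or processed transcript, selected on a mean of at least 1 FPKM over the 6 input libraries. FPKM is the number of sequenced fragments per kilobase of gene after scaling between libraries. The rule kept 217 of 3230 genes of these classes, out of 32883 genes in the table. It kept 156 of 3090 lincRNAs, 32 of 59 antisense genes and 29 of 81 processed transcripts. Of the 3230 genes, 2057 were listed at 0 in all 6 libraries. Because the mean level chose the genes, their presence at that level is not a result.

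The cells were primary rat aortic smooth muscle cells, labelled wild type, in medium with 20% fetal bovine serum. For 48 h they were exposed to an adenovirus, which encoded a short hairpin RNA to NAT10 in the knockdown group (3 input libraries) and was the control adenovirus in the control group (3 input libraries). Both groups therefore carried a virus. N4-acetylcytidine (ac4C), an acetylated cytidine of RNA, was pulled down by antibody from RNA fragments of 100 to 200 nt for 3 knockdown and 3 control libraries. In a separate assay, RNA bound to NAT10 protein was precipitated from 3 libraries of these cells (NAT10 RIP). The replicates are called biological repeats without word of separate animals, and the p-values below then cover only the spread among these libraries, part of which may be technical.

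A lincRNA is a long RNA without a recognised protein product, transcribed from its own place between protein-coding genes. An antisense RNA is read from the strand opposite a known gene, and a processed transcript is a spliced RNA for which the annotators found no open reading frame. Long noncoding RNAs of the nucleus can scaffold nuclear bodies, hold proteins or act on neighbouring genes, and in vascular smooth muscle some are known to affect growth and contractile state. NAT10 is the acetyltransferase that places ac4C on ribosomal and transfer RNA, and on messenger RNA as the study's title has it.

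The class label held for only some of the genes that could be looked up. RefSeq's table for assembly GRCr8 held the symbols of 24 of the 217 genes. All 15 matched processed transcripts were protein-coding genes in RefSeq, among them Smg1, a kinase of nonsense-mediated decay, Arid5b, a DNA-binding regulator, Snx3, a sorting protein of endosomes, and Itgb5, the beta-5 integrin chain. One of the lincRNAs, Rfwd3, a ubiquitin ligase of DNA repair, was protein-coding there too. The remaining 7 matched lincRNAs and the 1 matched antisense gene were long noncoding RNAs in RefSeq. Of the 217 genes, 184 carry a clone name such as AC134224.3, and these are called by that name with no function assigned. The median length behind the FPKM values was 808 nt in lincRNAs, 655.5 nt in antisense genes and 3763 nt in processed transcripts.

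Of 86 symbols of well-known long noncoding RNAs and RNA enzymes that had been listed by role, 4 were found by symbol and only Tug1 was among the 217 genes. Rpph1, the RNA of RNase P, is listed as a ribozyme (mean 502 FPKM), Terc, the telomerase RNA, as a miscellaneous RNA (1.46 FPKM) and Snhg11 as protein-coding (0.0166 FPKM). The other symbols were not analysed here.

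The 300 bases around the RefSeq start are shown for 2 long noncoding RNAs of the class, to let their starts be compared. These are Tug1, the one listed symbol found in the class, and LOC102553018, which lies beside Ccn1. For both, chromosome, strand and neighbours in the peak lists matched RefSeq. They run from 250 bases before to 50 bases after the start, on the gene's own strand, from RefSeq's GRCr8 table (Tug1 at chr14:82750485-82750784, minus strand; LOC102553018 at chr2:237225471-237225770, plus strand). Capitals mark the TATA box TATAAA on either strand and the terminal oligopyrimidine motif, a C followed by at least 5 pyrimidines that begins within 10 bases of the start.
Tug1: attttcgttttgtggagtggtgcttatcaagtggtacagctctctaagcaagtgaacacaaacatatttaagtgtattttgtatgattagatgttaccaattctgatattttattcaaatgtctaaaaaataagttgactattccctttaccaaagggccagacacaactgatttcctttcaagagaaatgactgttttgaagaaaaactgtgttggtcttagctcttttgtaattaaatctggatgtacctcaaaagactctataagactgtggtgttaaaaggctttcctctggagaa
LOC102553018: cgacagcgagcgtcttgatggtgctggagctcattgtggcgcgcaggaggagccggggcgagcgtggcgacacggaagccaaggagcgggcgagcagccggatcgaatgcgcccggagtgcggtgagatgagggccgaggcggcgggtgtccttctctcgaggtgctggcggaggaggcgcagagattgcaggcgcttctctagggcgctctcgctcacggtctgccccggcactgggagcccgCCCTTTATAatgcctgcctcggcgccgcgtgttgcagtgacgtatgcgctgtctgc

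The capitals in LOC102553018 hold both motifs, which overlap, with the TATA box on the opposite strand. The bases before its start reach into Ccn1, which RefSeq places beside it and the peak lists read from the other strand. Tug1 holds neither motif. Among all 33469 promoters of that table, 14.2% hold the TATA box and 17.8% the oligopyrimidine motif. A match is a description of these letters and not evidence of a site.

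The input libraries held 6417941 to 7468528 recovered fragments in the knockdown group and 8171176 to 12065991 in the control group. Nat10, the target of the hairpin, stood at 4.38, 3.68 and 4.58 FPKM in knockdown libraries and at 7.69, 9.22 and 9.95 FPKM in control libraries (log2 change -0.93, SE 0.19, limma adjusted p = 0.227). On the first principal component (40.8% of the variance), knockdown library 2 stood at -70.0 and control library 1 at -10.3, against 29.5 and 30.9 for control libraries 3 and 2. The 8 smooth muscle markers, of which 7 passed 1 FPKM, summed to 682 to 3295 FPKM in knockdown libraries and 4189.6 to 5737 FPKM in control libraries. The 6 adventitial fibroblast markers summed to 187 to 252 FPKM in knockdown and 273 to 302 FPKM in control libraries. Of the endothelial markers 5 of 6 were measured, and their sum was under 1 FPKM in every library, with Emcn at 0. Leukocyte markers, 5 of 6 measured and with Cd3e at 0, summed to 5.03 to 11.1 FPKM in knockdown and 3.54 to 5.36 FPKM in control libraries. The 4 Schwann cell markers summed to 0.655 to 2.81 FPKM in knockdown and 1.07 to 4.69 FPKM in control libraries. In bulk RNA, fewer cells of a type and less RNA per cell cannot be told apart, and the part of these marker differences in the results below was not tested.

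The 217 genes were mostly low. Their median mean level was 3.31 FPKM, against 11.2 FPKM for the 11725 protein-coding genes with at least 1 FPKM. By class the median was 2.90 FPKM for lincRNAs, 5.85 FPKM for antisense genes and 7.38 FPKM for processed transcripts. Of the 217 genes, 65 were under 2 FPKM, 43 reached 10 FPKM, 11 reached 50 FPKM and 3 exceeded 1000 FPKM. Over the 6 libraries a median gene rested on 174 recovered fragments, against 1048.5 for all 13450 tested genes, and 64 of the 217 rested on fewer than 100. Just inside the 1 FPKM limit were AABR07033666.1 (mean 1.00 FPKM, 23 fragments), AABR07017113.1 (1.00 FPKM) and AABR07051376.2 (1.05 FPKM). Just outside were AC119007.2 (0.998 FPKM), AABR07021996.1 (0.993 FPKM) and AABR07044962.1 (0.987 FPKM). Of the 217 genes, 191 reached 1 FPKM in the mean of both groups, 14 only in the knockdown group and 12 only in the control group.

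The lincRNAs AC134224.3, AC134224.2 and AC134224.1 held most of the RNA of these classes, and in each of them all knockdown libraries stood above all control libraries. The listed peak rows place AC134224.1 at chr1:221154710-221156910 and AC134224.3 at chr1:221158098-221158792, both on the minus strand. These are coordinates of the authors' peak rows and not gene ends. The build is not given in the lists, and the submitters' processing notes name rn6 beside GRCm38 and GRCh38. Frmd8 is the next gene to the right of both. AC134224.2 has no listed row of its own, so its place beside them rests on its name alone. Identifiers of 1 interval can be pieces of the same transcript, so the 3 are not counted as independent.

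AC134224.3 (695 nt) stood at 7649, 14169 and 7919.8 FPKM in knockdown libraries 1 to 3 and at 4474.5, 3954 and 4108 FPKM in control libraries 1 to 3. AC134224.2 (709 nt) stood at 4692, 9231 and 5520.4 FPKM in knockdown libraries and at 2963, 2899.9 and 2897 FPKM in control libraries. AC134224.1 (2350.0 nt) stood at 3179.7, 5995 and 3468 FPKM in knockdown libraries and at 1851, 1836 and 1900.1 FPKM in control libraries. In all 3 genes the control libraries lay close together and knockdown library 2 was the highest. The means were 9913 ± 3689 FPKM in knockdown and 4179 ± 267 FPKM in control libraries for AC134224.3 (SD, n = 3 each), a ratio of 2.37. The ratios were 2.22 for AC134224.2 and 2.26 for AC134224.1. On the log2(FPKM + 1) scale the changes were 1.19 (SE 0.48, limma adjusted p = 0.385) for AC134224.3, 1.09 (SE 0.43, limma adjusted p = 0.379) for AC134224.2 and 1.12 (SE 0.38, limma adjusted p = 0.347) for AC134224.1. None passed the threshold of 0.05. Without knockdown library 2 the log2 changes were 0.90, 0.80 and 0.83. The nearby gene Frmd8, a cofactor of iRhom proteins, stood at 33.8, 24.6 and 9.86 FPKM in knockdown and 12.6, 10.5 and 8.85 FPKM in control libraries.

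These 3 genes carried the class's share of the RNA. All 217 genes together held 3.62%, 6.14% and 2.98% of the summed FPKM in knockdown libraries and 1.99%, 1.98% and 2.01% in control libraries. The 3 genes alone held 3.20%, 5.79% and 2.71% in knockdown and 1.66%, 1.61% and 1.66% in control libraries. The other 214 genes held 0.420%, 0.356% and 0.273% in knockdown and 0.336%, 0.367% and 0.355% in control libraries, and there the groups overlapped. Counted in recovered fragments, the 217 genes held 2.73% ± 1.02 in knockdown and 1.29% ± 0.0118 in control libraries (SD, n = 3 each).

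**Figure D1:**
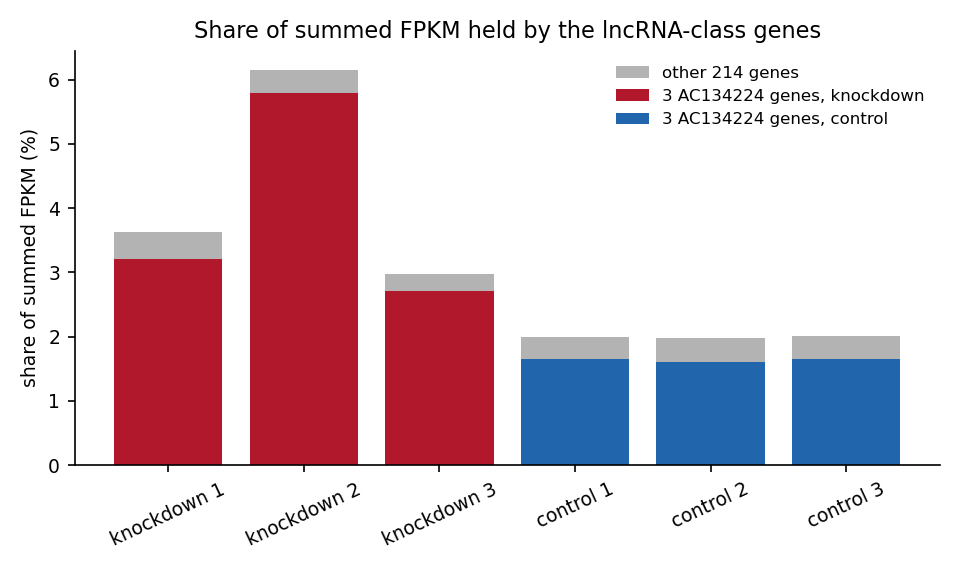
Share of each input library's summed FPKM (vertical axis, percent) held by the 3 AC134224 genes (coloured) and by the other 214 genes (grey), for 3 knockdown and 3 control libraries. Knockdown library 2 reaches 6.14%, and the 3 control libraries lie at 1.98% to 2.01%.

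Over all the genes, no expression change passed the threshold. limma called 0 of the 217 genes higher and 0 lower at an adjusted p under 0.05, against 0% of the 13450 tested genes in each direction. The lowest adjusted p, 0.155, belonged to a lincRNA, AABR07030366.1. Without adjustment, 14 of the 217 genes were higher and 14 lower at p under 0.05, against 5.53% higher and 6.95% lower over all tested genes. The libraries of the 2 groups did not overlap for 26 higher and 24 lower genes of the 217, against 9.63% and 10.9% over all tested genes. The log2 change was above 0 in 107 and below 0 in 110 of the 217. Its median was -0.03, against -0.01 over all tested genes. By class the median was 0.01 for lincRNAs, -0.14 for antisense genes and 0.08 for processed transcripts. With library quality weights limma called 3 of the 217 higher and 1 lower, against 0.892% and 1.6% over all tested genes. The weights were 3.797 and 3.566 for control libraries 2 and 3, and 0.235 to 1.348 for the other libraries. Control libraries 2 and 3 were also the closest pair of all. The weighted calls therefore rest most on that pair, and whether its libraries are separate replicates was not tested.

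**Figure D2:**
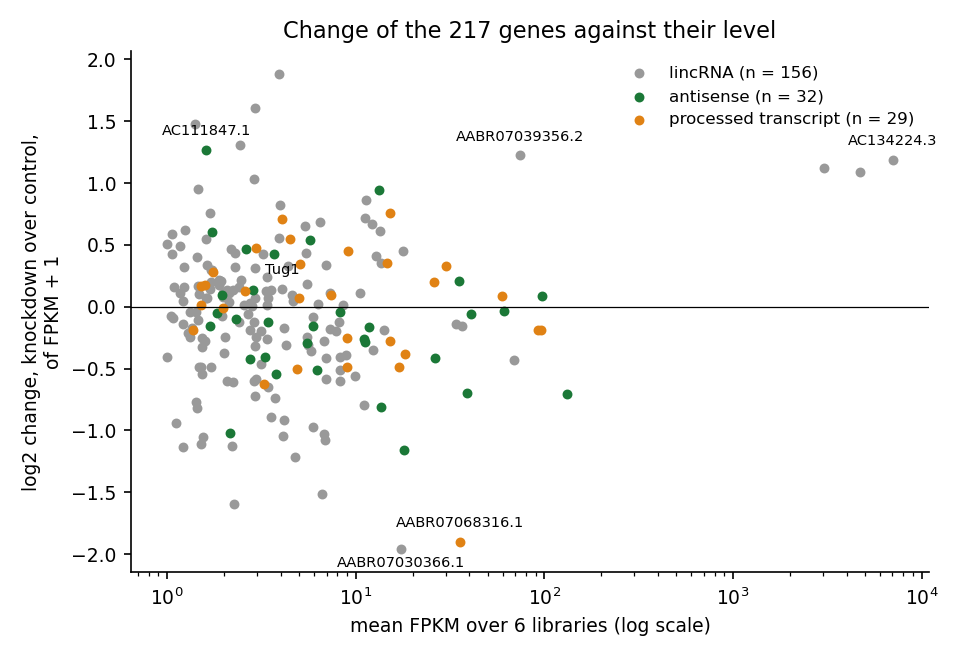
Log2 change of FPKM + 1, knockdown over control (vertical axis), against the mean FPKM over 6 libraries on a log scale (horizontal axis) for the 217 genes, coloured by class. The 3 AC134224 genes stand apart at the right, and the low genes scatter on both sides of 0.

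AABR07030366.1 had the smallest p of the class. This lincRNA of 1674 nt has listed peak rows at chr10:82738903-82742975 on the minus strand, 18530.0 nt from those of Col1a1, the alpha-1 chain of type I collagen, which lies on the plus strand. It stood at 6.20, 9.22 and 4.59 FPKM in knockdown libraries and at 33.8, 26.98 and 23.7 FPKM in control libraries. Every knockdown library was below every control library, with means of 6.67 ± 2.35 and 28.2 ± 5.15 FPKM (SD, n = 3 each), and 1588 fragments lie behind the 6 values. The log2 change was -1.96 (SE 0.26, unadjusted p = 0.000132, limma adjusted p = 0.155). Col1a1 itself stood at 4078, 3005 and 6372 FPKM in knockdown and 5874, 6135 and 6235 FPKM in control libraries, and its groups overlapped (log2 change -0.51, limma adjusted p = 0.677). With library quality weights the adjusted p of AABR07030366.1 was 0.0192, and over the 18 alternatives it ran up to 0.730.

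AC108578.1 was the most abundant antisense gene and also stood lower in every knockdown library. It is 177 nt long, on the minus strand of chromosome 8, and its row overlaps Psma4, an alpha subunit of the proteasome core, on the other strand. It stood at 100.3, 97.6 and 100.7 FPKM in knockdown libraries and at 203, 140.3 and 151 FPKM in control libraries (log2 change -0.70, SE 0.19, limma adjusted p = 0.291). Psma4 stood at 14.9, 15.3 and 15.7 FPKM in knockdown and at 25.6, 22.7 and 22.7 FPKM in control libraries (log2 change -0.60, SE 0.15, limma adjusted p = 0.272). Both genes of this pair stood lower without overlap. The RNA-seq kit marked strand, but the sources used here do not give the strand setting of the counting, so reads of an antisense gene and its partner may not be told apart.

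Of the other genes named for the smallest p among the lower ones, 5 of 6 had groups that did not overlap. Over all tested genes the share was 10.9%. The genes were chosen by p from the same values, which favours such a split, so the count is not support. AABR07041096.1, a lincRNA of 4311 nt on the X chromosome, stood at 3.42, 5.99 and 3.03 FPKM in knockdown and 12.1, 8.22 and 7.75 FPKM in control libraries (log2 change -1.03, SE 0.28, limma adjusted p = 0.291). AABR07072169.1 stood at 2.25, 3.03 and 2.39 FPKM in knockdown and 6.93, 5.62 and 4.64 FPKM in control libraries (limma adjusted p = 0.273), but on 80 fragments in all. LOC100909912, between Zmynd8 and Ncoa3 on chromosome 3, stood at 2.06, 1.85 and 1.95 FPKM in knockdown and 3.60, 4.34 and 3.70 FPKM in control libraries (limma adjusted p = 0.304). In each of these 3 genes every knockdown library stood below every control library. AABR07060519.1, between Ezh2 and Pdia4, averaged 3.59 ± 1.03 FPKM in knockdown and 8.22 ± 3.38 FPKM in control libraries (SD, n = 3 each). AABR07024856.1 averaged 0.958 ± 0.387 FPKM in knockdown and 3.48 ± 1.84 FPKM in control libraries on 59 fragments (SD, n = 3 each). In LOC102549948, with 7.57, 2.86 and 2.54 FPKM in knockdown and 7.35, 11.9 and 9.14 FPKM in control libraries, knockdown library 1 lay within the control range. The limma adjusted p of these last 3 genes was 0.318 to 0.351.

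Among the higher genes, AABR07035338.1 had the smallest p. This processed transcript of 3350.0 nt has its row on the minus strand of chromosome 12, between Wasf3 and Cyp3a18. RefSeq places 4 genes in that interval, among them the protein-coding Cdk8 and Rnf6. No such name was given to the identifier, and whether it is part of a protein-coding gene was not tested. AABR07035338.1 stood at 20.4, 18.0 and 19.5 FPKM in knockdown and 10.5, 10.8 and 11.5 FPKM in control libraries. Its means were 19.3 ± 1.20 and 10.97 ± 0.504 FPKM (SD, n = 3 each), and the log2 change was 0.76 (SE 0.15, limma adjusted p = 0.227). AABR07054460.4 stood at 18.4, 15.9 and 15.2 FPKM in knockdown and 9.89, 10.5 and 10.8 FPKM in control libraries (log2 change 0.61, SE 0.16, limma adjusted p = 0.279). AABR07068316.2, between Ackr3 and Mlph on chromosome 9, stood at 5.50, 5.38 and 5.13 FPKM in knockdown and 3.29, 2.34 and 2.21 FPKM in control libraries (log2 change 0.82, SE 0.21, limma adjusted p = 0.279). These 3 genes and AABR07030366.1 were the 4 that library quality weights called, with adjusted p of 0.0351, 0.0483 and 0.0496 for the 3 higher ones. As given above, that fit rests most on control libraries 2 and 3.

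The other higher genes named by the rule rested on fewer fragments or lay closer to the controls. Rfwd3 stood at 8.18, 6.93 and 5.32 FPKM in knockdown and 3.82, 4.15 and 3.79 FPKM in control libraries (log2 change 0.65, SE 0.21, limma adjusted p = 0.324). AABR07058158.1, 278347 nt from Myc on chromosome 7, averaged 20.8 ± 2.70 FPKM in knockdown and 14.9 ± 0.521 FPKM in control libraries (SD, n = 3 each, limma adjusted p = 0.356). Its row lies between Myc and Gsdmc, where RefSeq places 10 genes, among them Pvt1, and no such name was given to the identifier. AC111847.1, which lies opposite Cenpp, a centromere protein, stood at 3.32, 3.42 and 1.41 FPKM in knockdown and 0.634, 0.156 and 0.733 FPKM in control libraries. It rested on 63 fragments (limma adjusted p = 0.304), and its neighbour Ippk, an inositol phosphate kinase, stood at 7.38, 9.79 and 5.46 FPKM in knockdown and 3.15, 3.32 and 3.51 FPKM in control libraries. AABR07030834.1 stood at 7.48, 3.11 and 1.55 FPKM in knockdown and 0.928, 0.854 and 0.644 FPKM in control libraries on 85 fragments (limma adjusted p = 0.349). All 4 were higher without overlap, against 9.63% of all tested genes, but they too were chosen by p from the same values.

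**Figure D3:**
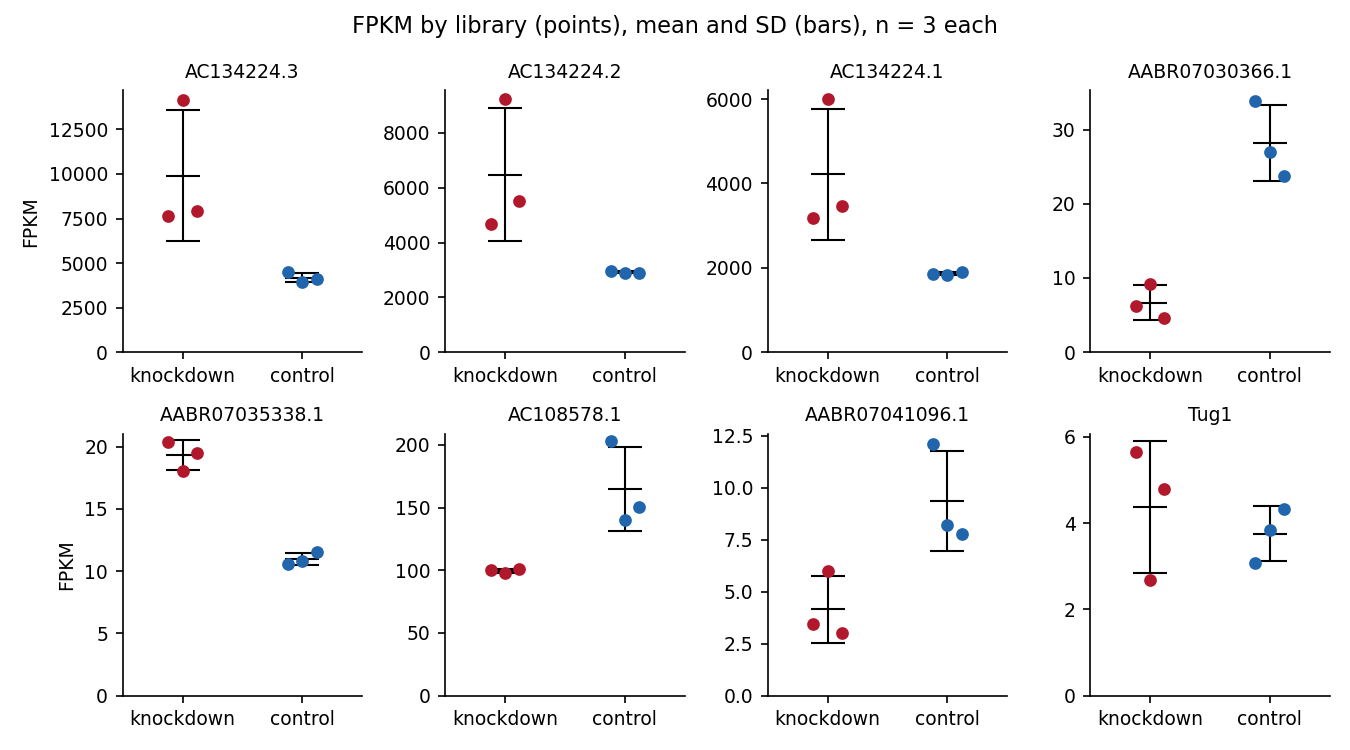
FPKM (vertical axes, each from 0) in 3 knockdown and 3 control libraries for 8 named genes; points are libraries, bars the mean and SD. The groups overlap in Tug1 and are apart in the other 7, and knockdown library 2 is the highest point of the 3 AC134224 genes.

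Tug1, known in mouse for its need in the retina and in male fertility, was present at a low level with no difference beyond the spread between libraries. It stood at 5.66, 2.68 and 4.78 FPKM in knockdown and 3.07, 3.85 and 4.33 FPKM in control libraries (log2 change 0.14, SE 0.28, limma adjusted p = 0.861). The knockdown libraries lay on both sides of all controls. Its neighbour Morc2, a chromatin-silencing ATPase, stood at 17.1, 8.20 and 16.1 FPKM in knockdown and 9.87, 13.0 and 12.6 FPKM in control libraries. Smtn, a smooth muscle contractile protein on the other side, stood at 42.7, 40.4 and 35.5 FPKM in knockdown and 71.5, 61.4 and 58.2 FPKM in control libraries.

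Several abundant genes of the class had overlapping groups. The antisense gene AABR07055846.2, opposite Ptbp1, a splicing regulator, averaged 100.7 ± 15.8 FPKM in knockdown and 94.2 ± 8.57 FPKM in control libraries (SD, n = 3 each). Arid5b averaged 90.3 ± 15.4 FPKM in knockdown and 101.98 ± 2.64 FPKM in control libraries, and Snx3 86.4 ± 4.80 FPKM in knockdown and 98.98 ± 8.70 FPKM in control libraries (SD, n = 3 each). The antisense gene AABR07055844.1 averaged 61.1 ± 12.3 FPKM in knockdown and 61.7 ± 1.50 FPKM in control libraries (SD, n = 3 each). AABR07042454.2 stood at 48.0, 102.2 and 36.2 FPKM in knockdown and 77.3, 81.3 and 70.0 FPKM in control libraries. In each of these 5 the groups overlapped. The limma adjusted p ran from 0.647 to 0.958.

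Some genes varied widely among the 6 libraries. In 41 of the 217 genes the highest library was at least 10 times the lowest, against 8.33% of all tested genes (18.9% of the 217). Among genes with at least 100 fragments it was 18 of 153 of these genes and 296 of 11209 protein-coding genes. The ratio takes all 6 libraries, so it does not separate spread within a group from a difference between the groups. These counts include genes listed at 0 in a library, and the ratio was chosen after the values had been seen. The most abundant of them was AABR07039356.2, a lincRNA of the X chromosome opposite LOC680227. It stood at 294, 4.34 and 45.0 FPKM in knockdown and at 1.32, 60.2 and 39.1 FPKM in control libraries (log2 change 1.22, SE 1.69, limma adjusted p = 0.794). Both groups held high and low libraries. LOC680227, on the other strand, stood at 191, 65.1 and 67.4 FPKM in knockdown and at 9.46, 26.6 and 30.5 FPKM in control libraries (log2 change 2.19, SE 0.55, limma adjusted p = 0.278), higher without overlap. As for Psma4, reads of the pair may not be told apart. The row lies between Tsx and Zcchc13, an interval that in RefSeq also holds Xist and Ftx, and no such name was given to the identifier. Kdm5d and Eif2s3y, genes of the Y chromosome, were present in all 6 libraries, at 5.42 to 7.06 and 20.98 to 40.2 FPKM in knockdown and at 8.68 to 10.9 and 22.5 to 29.8 FPKM in control libraries.

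LOC100912578, on chromosome 3 among olfactory receptor genes, stood at 18.4, 13.1 and 0.348 FPKM in knockdown and 0.584, 20.6 and 21.2 FPKM in control libraries. One library of each group was near 0 and the other 2 were high. AABR07044364.2, opposite Prr3 on chromosome 20, stood at 35.5, 99.9 and 4.64 FPKM in knockdown and 31.6, 19.96 and 18.8 FPKM in control libraries. AABR07053481.1 stood at 12.7, 0.219 and 16.6 FPKM in knockdown and 4.20, 16.5 and 15.97 FPKM in control libraries. AABR07068316.1, a processed transcript of 10988 nt on the minus strand of chromosome 9, stood at 9.95, 4.35 and 39.8 FPKM in knockdown and 26.4, 66.8 and 66.4 FPKM in control libraries (log2 change -1.90, SE 0.74, limma adjusted p = 0.374). Its highest knockdown library was above its lowest control, and without knockdown library 2 the log2 change was -1.24. It lies 141.4 kb from AABR07068316.2, which stood higher in the knockdown libraries. Both lie between Ackr3 and Mlph, where RefSeq places 12 genes, among them the protein-coding Cops8 and Col6a3. No such name was given to either identifier, and whether AABR07068316.1 is part of a protein-coding gene was not tested.

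LOC102553018, whose promoter is shown above, stood at 2.47, 0.596 and 4.03 FPKM in knockdown and 2.17, 6.94 and 8.63 FPKM in control libraries (log2 change -1.04, limma adjusted p = 0.486). Knockdown library 2 and control library 1 were its lowest values in each group. Its listed rows begin 4933 nt from those of Ccn1, a matricellular growth regulator read from the other strand. Ccn1 stood at 493, 347 and 1139 FPKM in knockdown and 1089, 1364 and 1367 FPKM in control libraries. Knockdown library 2 and control library 1 were the lowest of their group there as well. Those 2 libraries also deviated from their group means together over all tested genes (correlation 0.414). The pattern is therefore not particular to this pair.

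**Figure D4:**
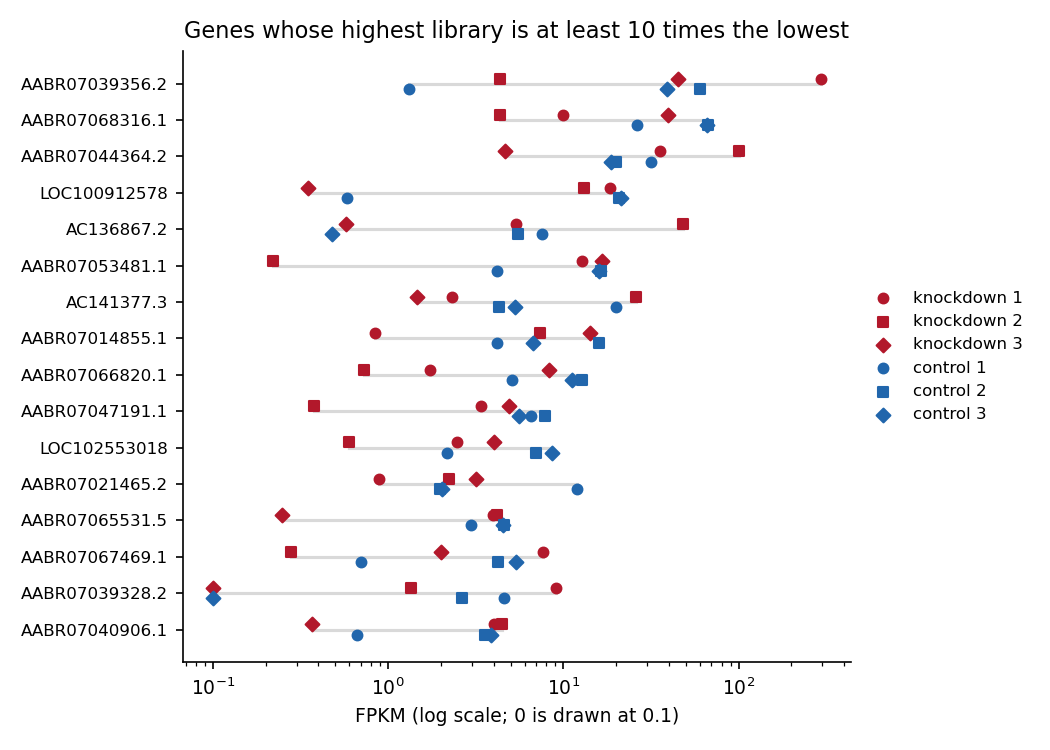
FPKM on a log scale (horizontal axis, 0 drawn at 0.1) in each of 6 libraries for the 16 genes with at least 2 FPKM, at least 100 fragments and a highest library at least 10 times the lowest. Knockdown (red) and control (blue) points interleave in most rows.

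The ac4C lists held few of these genes once rows with a common p-value were set aside. The authors' lists give a p-value per peak. In control lists 1 and 2, 26881 of 29998 and 27673 of 29593 rows share a single value. With all rows, 24, 18 and 20 of the 217 genes had a row in knockdown lists 1 to 3 and 126, 124 and 23 in control lists 1 to 3. With the rows of shared p-value left out, the counts were 24, 18 and 20 in knockdown lists and 26, 12 and 23 in control lists. The higher counts of control lists 1 and 2 were made up of the shared rows. All counts below leave those rows out.

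In any of the 6 lists, 65 of the 217 genes had an ac4C peak (30.0%), against 47.6% of all tested genes. These were 42 lincRNAs, 6 antisense genes and 17 of the 29 processed transcripts. Peaks are found more often in abundant RNA, so genes of 1 to 10 FPKM were also set side by side. There 8.05%, 4.60% and 6.32% of 174 genes of the class had a peak in the knockdown lists, against 12.9%, 10.7% and 7.90% of 5421 protein-coding genes. In the control lists it was 9.20%, 3.45% and 6.90%, against 12.9%, 7.86% and 13.8%. Within that range the genes of the class rested on a median of 139.5 fragments and the protein-coding genes on 467. Of the 65 genes, 36 had a peak in 1 list only (55.4%), against 47.7% of all tested genes with a peak. Read depth of the immunoprecipitated libraries is unknown, and a peak missing from a list is not evidence that the RNA lacks ac4C.

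AC134224.3 and AABR07041096.1 had peaks in all 6 lists, against 2.09% of all tested genes. In AC134224.3 the peak was the same in each list, chr1:221158098-221158792, which is as long as the gene. In AABR07041096.1 each list had a peak within chrX:119198089-119198873. Another peak was in 4 of the 6 lists, namely all 3 control lists and knockdown list 1. It lay 1.6 kb away in control list 3, and the row of control list 2 did not overlap those of the other lists. The RNA level of AABR07041096.1 was lower in the knockdown libraries, as given above. AC134224.1 had peaks in knockdown lists 1 and 3 and in all 3 control lists, and AC134224.2, between them in level, had none. AABR07068316.1, AABR07044364.2 and AABR07053749.2 had peaks in all 3 knockdown lists and 2 control lists. In AABR07068316.1 the places differed, with chr9:97926787-97926937 in control lists 2 and 3 and a row 25.5 kb away in knockdown list 2, which the row of knockdown list 1 overlaps. Knockdown list 2 had another row 9.8 kb from the control place, and knockdown list 3 had rows overlapping the control place and the farther one. LOC100912578 had peaks in knockdown list 3 and all 3 control lists. Its lowest levels were in knockdown input library 3 (0.348 FPKM) and control input library 1 (0.584 FPKM). The same-numbered ac4C lists held its peaks with the smallest listed p-values. AABR07039356.2 had peaks only in control list 1 and knockdown list 2, where its input was also lowest (1.32 and 4.34 FPKM). The reason was not tested.

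No gene of the class had peaks in all 3 lists of 1 group and none of the other. Over all tested genes, 0.491% had peaks in no knockdown list and all 3 control lists, and 0.297% the reverse. Trrap, a scaffold of histone acetyltransferase complexes, and AABR07001382.1 had peaks in 2 control lists and no knockdown list, against 2.71% of all tested genes. AABR07050487.1, AABR07035796.1 and AABR07030514.1 had peaks in 2 knockdown lists and no control list, against 2.12% of all tested genes. These 5 were singled out after their values had been seen. Among the other genes with repeated peaks, Itgb5 had them in 2 knockdown lists and 1 control list, and AABR07055846.2 and LOC102549726 in 1 knockdown list and 2 control lists. Tug1 had a peak in control list 2 alone.

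**Figure D5:**
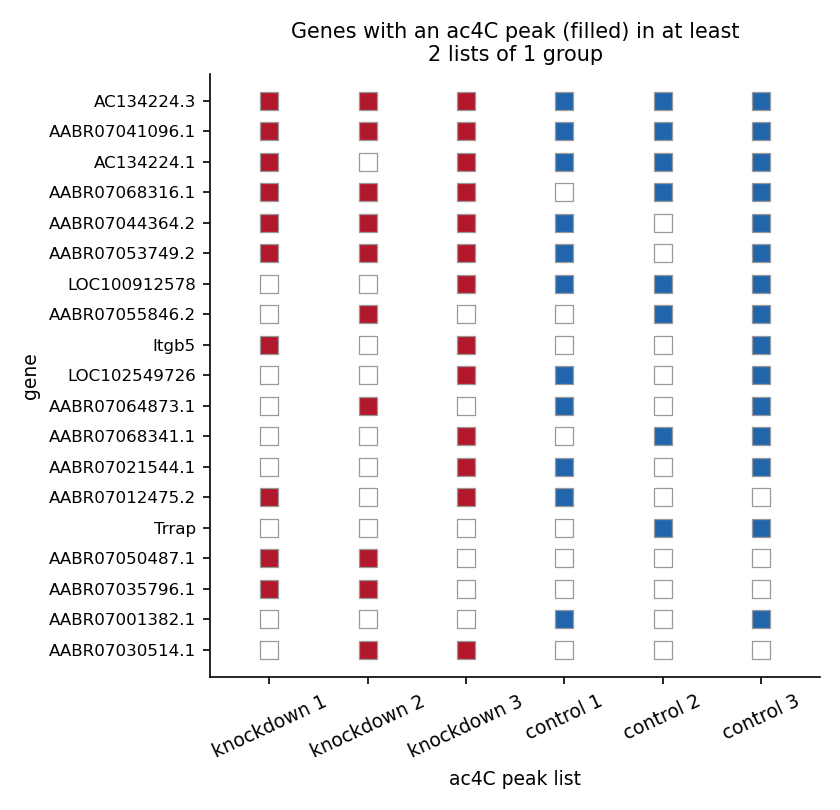
The 19 genes with an ac4C peak in at least 2 lists of 1 group (rows) across 3 knockdown and 3 control lists (columns); filled squares are peaks outside the shared p-values. AC134224.3 and AABR07041096.1 are filled in all 6 columns.

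NAT10 RIP peaks fell on none of the 217 genes, in any of the 3 lists, against 798 of the 13450 tested genes. Peaks in all 3 lists were found for 2.68% of all tested genes. The lists of 2268, 1993 and 1773 peaks named 586, 563 and 548 genes. Of the 808 genes in any list, 800 were in the expression table, and all 800 were protein-coding there. None of the 10633 genes of other classes appeared, of which 1725 reached 1 FPKM, so the absence is shared by every noncoding class. Among protein-coding genes of 1 to 10 FPKM, the level of most of the class, 0.203% had peaks in all 3 lists. AC134224.3, at a mean of 7046 FPKM in the input, had none either. The sources used here do not say whether the lists were restricted to messenger RNA.

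Genes of the machinery that handles noncoding RNA were also measured. Of 14 genes of nonsense-mediated decay, the pathway that removes transcripts with early stop codons and many noncoding RNAs, 0 passed limma's adjusted threshold in either direction. Before adjustment, 2 were higher and 1 lower at p under 0.05, against 5.53% and 6.95% of all tested genes. Upf1, its helicase, stood at 28.7, 23.8 and 24.2 FPKM in knockdown and 18.2, 15.6 and 16.3 FPKM in control libraries (limma adjusted p = 0.291). Upf3a averaged 7.52 ± 0.650 FPKM in knockdown and 13.7 ± 2.80 FPKM in control libraries (SD, n = 3 each). The groups did not overlap in Upf1 or Upf3a. Smg1, counted among the 14, is itself a processed transcript of the class, so this list and the class share a gene.

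Of 16 genes of the nuclear exosome, which degrades RNA from its 3' end, 0 passed the adjusted threshold, with 1 higher and 0 lower at p under 0.05 before adjustment, against the same 5.53% and 6.95%. That gene, the nuclease Dis3, averaged 9.11 ± 1.37 FPKM in knockdown and 5.58 ± 0.311 FPKM in control libraries (SD, n = 3 each). Of 10 paraspeckle proteins, which bind the nuclear RNA Neat1, 0 passed the adjusted threshold. Nono alone had an unadjusted p under 0.05, with 36.9, 35.96 and 58.3 FPKM in knockdown and 75.9, 67.1 and 72.3 FPKM in control libraries (limma adjusted p = 0.305). Of 7 measured snoRNP proteins and 11 proteins of RNase P and 3' end processing, 0 had an unadjusted p under 0.05. The median log2 changes of the 5 lists were 0.16, -0.03, 0.04, 0.05 and -0.08 in this order, against -0.01 over all tested genes.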

How the data were processed

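Input RNA-seq of 3 knockdown and 3 control libraries came as FPKM that the authors deposited in 1 table. Per the file headers, the authors deposited a p-value for each peak in the 6 ac4C lists, and a p-value beside a log2 enrichment for each peak in the 3 NAT10 RIP lists. The non-precipitated RIP library was not analysed here. Tools in the submitters' processing notes are HISAT2 2.1.0, featureCounts 1.6.3, HOMER 4.10.4, cutadapt 2.5 and DESeq2, and builds are rn6, GRCm38 and GRCh38, all without roles. The RNA-seq kit was stranded, per the labels' protocols. The sources used here do not give the peak callers or the RIP control.

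Whole fragments and gene lengths were recovered from the FPKM decimals for all 21401 genes above 0 (relative tolerance 2e-08) and gave the depths. The smallest length with whole fragments in every library was taken, so a gene's length and fragments can come out too small by a whole factor. For 7556 genes with 1 row in the first control ac4C list, it equalled the row's covered length in 64.0%, was longer in 31.7%, where the row may cover part of the gene, and shorter in 4.26%. Expression of the 13450 genes at a mean of 1 FPKM or more was fitted as log2(FPKM + 1) by limma 3.58.1 (R 4.3.3), with group as the only term, a mean-variance trend, two-sided tests and Benjamini-Hochberg adjustment over all of them at 0.05. This scale understates changes of low genes. The fit was tried on simulated data with the same noise level in all libraries. The libraries here differed in noise, so that trial does not show how the fit performs on them. Deviations of same-numbered libraries from their group means had correlations of -0.211, -0.284 and 0.179. The largest correlation, 0.414, was between knockdown library 2 and control library 1. With 3 libraries per group, these values cannot settle whether the numbers pair samples, and the main fit used no pairing. No 2 libraries were closer than control 2 and 3 (median chi-square 0.756 per gene, against 0.455 from sampling alone). Peak positions count from 1 and were not moved between builds. RefSeq names were matched by symbol, synonym or gene number.

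The genes and lists were chosen with earlier results of these data known. The rule named Nat10; listed long noncoding RNAs; the 10 highest genes; 8 per direction with the smallest p; up to 10 with repeated ac4C peaks; and 3 on each side of 1 FPKM. Alternatives covered pseudocount, filter, scaling, model, single libraries and peak thresholds. Some genes are not reported here.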

Additional observations from a re-analysis of the deposited data

How the results depend on the processing

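The 2 planned fits with edgeR and DESeq2 were not run, since the deposited unit is FPKM; voom on the recovered fragments stood in. Library quality weights called 120 genes higher and 215 lower over all genes, and 3 higher and 1 lower of the 217, where limma called 0 (744 higher and 935 lower over all genes at an unadjusted p under 0.05, and 14 each of the 217). Leaving out 1 library gave 0 to 1 higher and 0 to 1 lower over all genes, and 0 of the 217 in each direction; the single calls came without knockdown library 2 (higher) and without control library 3 (lower). With the replicate block, 0 were called in either set. The median log2 change of the class was -0.031, and became -0.107 for genes of at least 2 FPKM (as a filter or as a rule for the class) and 0.0403 with quality weights; it was -0.142 for antisense genes alone and 0.0843 for processed transcripts alone. Under the other alternatives, with -0.0595 to 0.0235 without 1 library, it moved by less than the spread between knockdown libraries. The difference in share of summed FPKM was 2.26 percentage points, -0.00275 without the 3 AC134224 genes, an alternative added after seeing the data, and 1.31 (without knockdown library 2) to 2.89 without 1 library. The mean difference in genes with an ac4C row, -70.3, was 0.333 with the shared p-value left out and also for p under 0.01; without 1 library it ran from -104 to -52.8. No alternative gave a RIP peak in the class.

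The reversed directions below were all of uncalled genes, and the cause was not tested. Without 1 library at a time the log2 change ran from -0.0339 to 0.394 for Tug1, -0.0254 to 0.198 for AABR07055846.2, -0.00279 to 0.576 for AABR07053749.2 and -0.104 to 0.226 for Itgb5, each lowest without knockdown library 1. It ran from -0.249 to 2.71 for AABR07039356.2 (-0.187 without knockdown library 1, lowest without control library 1) and from -0.349 to 0.054 for LOC102549726 (0.0229 without knockdown library 1, highest without control library 1). It ran from -0.175 to 0.113 for AABR07055844.1, which also stood at 0.0345 with quantile normalization, 0.113 with quality weights and 0.0945 without knockdown library 2 and control library 1. It ran from -0.222 to 0.192 for AABR07051376.2, with 0.141 under quality weights and 0.226 without those 2 libraries, and from -0.733 to 1.35 for AABR07044364.2, with -0.506 without them. It ran from -1.61 to 0.856 for LOC100912578 (0.274 and 0.292 without control libraries 2 and 3), with 0.283 when these were averaged. Depth limits the low genes most: 64 of the 217 rested on fewer than 100 fragments.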
